A study of Mus musculus with 12 samples.

Results

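The genes described here are the nuclear-encoded subunits of the mitochondrial respiratory chain, with a few close relatives that carry the same name stems. They were chosen by name: every non-control probe whose gene name starts with Nduf, Uqcr, Atp5, Cox4, Cox5, Cox6, Cox7 or Cox8, with Sdh followed by a, b, c or d, or is Cyc1 or Cycs. This gave 100 gene names, measured by 147 probes in 156 spots, out of 29608 gene names in 43020 spots. By name, 37 belonged to complex I, 4 to complex II, 9 to complex III, 1 was cytochrome c, 17 belonged to complex IV and 17 to complex V. The remaining 15 were assembly factors (Ndufaf and Sdhaf genes), the paralogs Ndufa4l2 and Ndufa11b, and Cox7a2l, which joins complexes into supercomplexes.

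The samples were whole hippocampi of 12 female mice in diestrus, about 12 weeks old, 4 per strain. MRL/lpr mice carry the lpr loss-of-function mutation of the death receptor gene Fas and develop a lupus-like autoimmune disease. Fn14ko mice carry lpr too, on the same background after backcrossing to generation 8. What sets them apart is the knockout of Tnfrsf12a, the gene of Fn14, which is the receptor of the cytokine TWEAK. MRL/+ mice, labelled MRL/MpJ, are of the same background without lpr. They were bought from a supplier while both lpr strains were bred together, so breeding colony and the MRL/+ group cannot be told apart. No cell type restriction of the knockout is given in the sources used here. RNA was hybridised to 6 Agilent arrays of 60-base probes, 2 mice of one strain per array, with odd-numbered mice in Cy3 and even-numbered mice in Cy5. Both arrays of a strain were on 1 slide, so slide and strain cannot be told apart. The tissue label is hippocampus while a free-text label speaks of cortex. Markers of both regions were detected, but at levels that differed between the strains. Over the 10 mice outside a dim array described below, the 7 measurable markers of hippocampal neurons had a median log2 fold change of 1.39 in MRL/lpr against MRL/+ and of 1.96 against Fn14ko, while 6 of cerebral cortex had -2.51 and -1.71. The Tnfrsf12a probe was above background in each of the 4 mice labelled Fn14ko. Which part of the gene the knockout removed is not given in the sources used here, so that probe is no check of the label.

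The respiratory chain takes electrons from NADH at complex I and from succinate at complex II, passes them through coenzyme Q, complex III and cytochrome c to oxygen at complex IV, and uses the proton gradient this builds to make ATP at complex V. Most subunits are encoded in the nucleus and imported, while a core set is encoded by mitochondrial DNA, so both sets have to be made together. Neurons depend heavily on this route for ATP, and some subunits, mainly of complex IV, exist in tissue-specific forms.

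The values below are expression levels, meaning background-subtracted signals divided by the median of the spots used in that sample, so that a level of 1 is the sample's median spot. Levels can be compared between mice for 1 gene but not between genes. The array shared by MRL/lpr mice 3 and 4 was much dimmer than the others. Its median spot was 1.93 and 1.73 times its local background, against 4.42 to 12.6 in the other 10 samples. A second feature of the arrays concerned both Cy5 mice of MRL/+, numbers 2 and 4, whose negative control spots had a median of 208 and 211, against 33.2 to 90.6 elsewhere. Counts of called genes are therefore given for all 12 mice and again for the 10 mice outside the dim array. Spots at least 2 times as bright as their background in every mouse used covered 84 of the 100 members in 12 mice and 98 in 10 mice. Each set of spots has its own sample medians, so levels over 12 mice and over 10 mice are on different scales. Because a bulk hippocampus was measured, fewer cells of a type and less RNA per cell cannot be told apart.

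Almost every member was detected where the array was bright. Between 94 and 99 of the 100 genes had a spot well above background in each of the 10 mice outside the dim array, but 82 and 70 did in MRL/lpr mice 3 and 4. The only member with no spot well above background in any of the 12 mice was Cox8c, a form of the small complex IV subunit 8. Cox7b2, known from testis, was well above background in 2 Fn14ko and 2 MRL/+ mice and in none of the 4 MRL/lpr mice. Cox8b, the heart and skeletal muscle form of subunit 8, was well above background in 2 mice of each strain. By the looser filter of 2 times background, Cox7b2 and Cox8b passed in all 10 mice outside the dim array. Cox4i1, the usual form of complex IV subunit 4, was well above background in every mouse, but it entered neither set because 1 MRL/+ spot carried a quality flag.

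Over all members, the largest departure was seen in MRL/lpr mice 3 and 4. The median member lay 0.98 and 1.34 log2 units below its mean in the 8 Fn14ko and MRL/+ mice, with 65 and 68 of 84 members below it. In MRL/lpr mice 1 and 2 the median was -0.06 and 0.02, with 47 and 41 of 84 members below. In the Fn14ko mice it lay between -0.09 and 0.05, and in the MRL/+ mice between -0.07 and 0.18. The split ran within the MRL/lpr strain and followed the array. The median of all 8864 genes in the same mice 3 and 4 was -0.01 and 0.09.

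**Figure D1:**
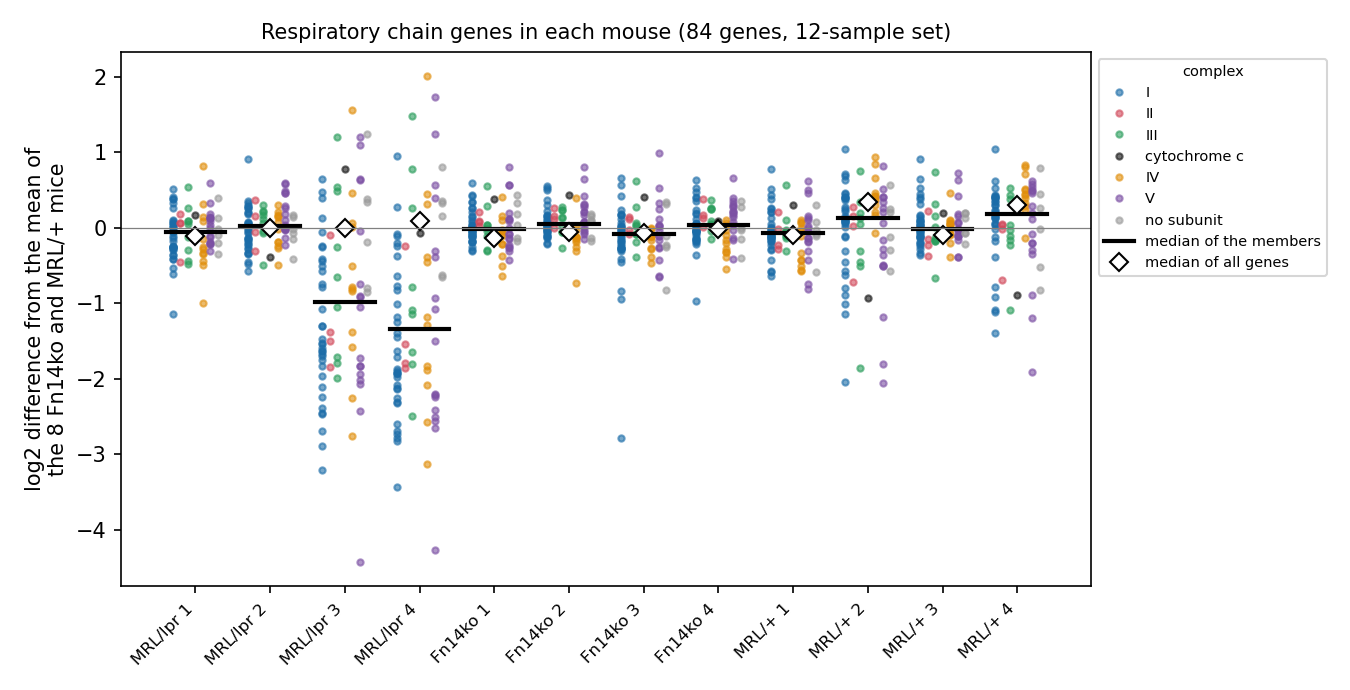
Log2 difference of each of 84 members from its mean over the 8 Fn14ko and MRL/+ mice (y axis), by mouse (x axis), coloured by complex, with the median of the members as a bar and the median of all 8864 genes as a diamond. The bars of MRL/lpr 3 and 4 lie at -0.98 and -1.34, those of the other 10 mice between -0.09 and 0.18.

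The shift in those mice moved with expression level in all genes. When the 8864 genes were ordered by level and cut into 10 equal parts, the median difference of MRL/lpr mouse 3 ran from 3.94 in the lowest part to -1.36 in the highest, and that of mouse 4 from 4.50 to -1.70. A gene entered only with a spot at least 2 times its background in every mouse, mice 3 and 4 included. Genes low in the other strains were thus kept only where mice 3 and 4 read them bright enough. The part of this filter in the low end of the trend was not tested. The order and the differences also share the mean of Fn14ko and MRL/+. The members were concentrated at the top of that order, with 27 in part 9, 31 in part 10 and none in parts 1 and 2. In part 10, the members had medians of -1.55 and -1.88 in mice 3 and 4, beside -1.36 and -1.70 for all genes there. In mice 1 and 2 the medians of all genes stayed between -0.39 and 0.05 in every part. After cyclic loess normalization, which evens out differences that depend on level, the medians of the members in mice 3 and 4 became -0.18 and -0.36, beside -0.09 and -0.15 for all genes. After quantile normalization they were -0.75 and -1.42, beside -0.26 and -0.41 for all genes, and after normexp background correction -1.18 and -1.62, beside 0.10 and 0.14.

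**Figure D2:**
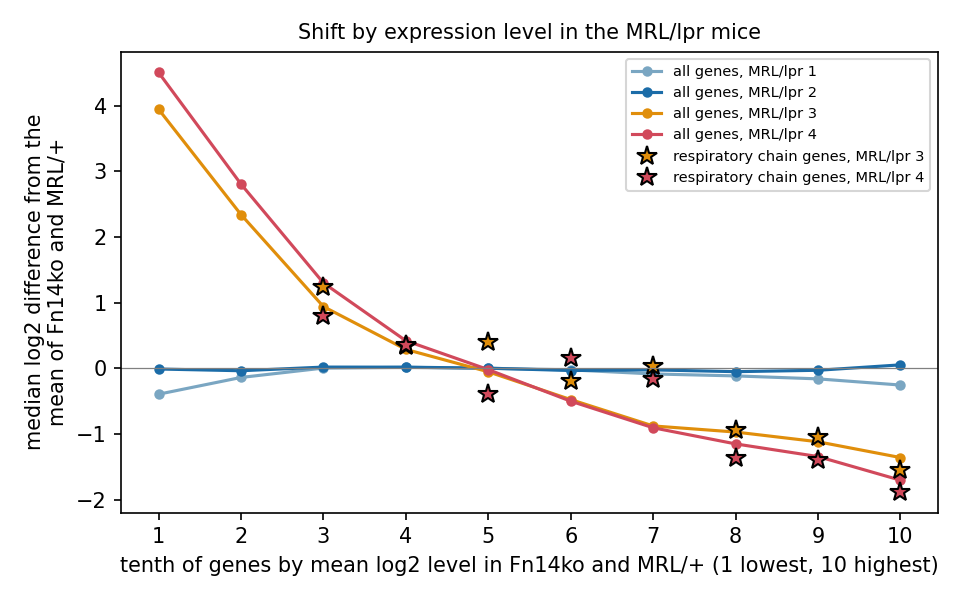
Median log2 difference of each MRL/lpr mouse from the mean of Fn14ko and MRL/+ (y axis) in 10 parts of all genes ordered by level (x axis), as lines for all genes and as stars for the members. The lines of mice 3 and 4 fall from 3.94 and 4.50 to -1.36 and -1.70. The stars lie near these lines in parts 8 to 10, with 12, 27 and 31 members. In parts 3 to 7, with 1 to 4 members each, some lie away from them, as in part 7 at 0.04 and -0.16 beside -0.88 and -0.90. The lines of mice 1 and 2 stay near 0. Genes too dim in mice 3 and 4 were left out by the filter, so the low parts hold only genes bright enough there.

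The comparison of MRL/lpr with MRL/+ asks what differs in the lupus-prone brain. Over 12 mice, 1 of 84 members passed the test, Uqcrc1, which fell, and none rose. By limma with Benjamini-Hochberg adjustment over all genes, 9.17% of 8864 genes were called, 307 higher and 506 lower. The members had a median log2 fold change of -0.64 (all genes -0.01), and 64 of 84 were below 0. Without the dim array, 1 of 98 members was called, Cox6a2, which was lower, beside 15.7% of 17936 genes. Their median was then 0.08 (all genes -0.10), with 41 of 98 below 0. Its sign depended on dye, at -0.08 between Cy3 mice and 0.21 between Cy5 mice (all genes 0.02 and -0.23). At an unadjusted p under 0.05, 38 of 84 members passed in 12 mice, beside 3242 of 8864 genes. In 10 mice 18 of 98 members passed, beside 6027 of 17936 genes.

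The comparison of MRL/lpr with Fn14ko asks what loss of the TWEAK receptor changes in mice that carry lpr. Over 12 mice 0 of 84 members were called by limma, beside 3.98% of all genes. An unadjusted p under 0.05 was seen for 24 members, beside 3211 of 8864 genes. The median was -0.64 (all genes 0.03), with 68 of 84 below 0. Without the dim array, Cox6a2, Ndufc1 and Sdha were lower in MRL/lpr, 3 of 98 members beside 9.12% of all genes, and none was higher. The median of the members was then -0.11 (all genes -0.04). Both comparisons share the MRL/lpr mice.

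For Fn14ko against MRL/+, 0 of 84 members were called by limma over the 12 mice, beside 0.519% of all genes. An unadjusted p under 0.05 was seen for 9 members, beside 1352 of 8864 genes. The median was -0.01 (all genes -0.16). Without the dim array the shared estimate of spread was smaller, with a median standard error of the members of 0.17 in place of 0.36, and 16 of 98 members were called, 14 higher and 2 lower in Fn14ko. This share of 16.3% stood beside a background of 21.1% of all genes. The median of the members was 0.19 (all genes -0.07). No Fn14ko or MRL/+ mouse was left out here, but the newly chosen spots changed the median by which each sample was divided. Of members with 1 spot, Sdhd moved from 0.06 over 12 mice to 0.31 and Ndufa4 from -1.72 to -1.47. The medians of -0.01 and 0.19 are thus on different scales. On the 10-mouse scale the difference was mostly in the Cy5 mice. Between Cy5 mice the median of the members was 0.31, between Cy3 mice it was 0.04. On the 12-mouse scale these were -0.11 and -0.005. Of the 16 calls, that of Cox7a2l held under all 14 alternative settings of the 10-mouse fit, and each of the others was lost under 1 to 11 of them. The part of the high negative controls of the MRL/+ Cy5 mice in these calls was not tested.

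**Figure D3:**
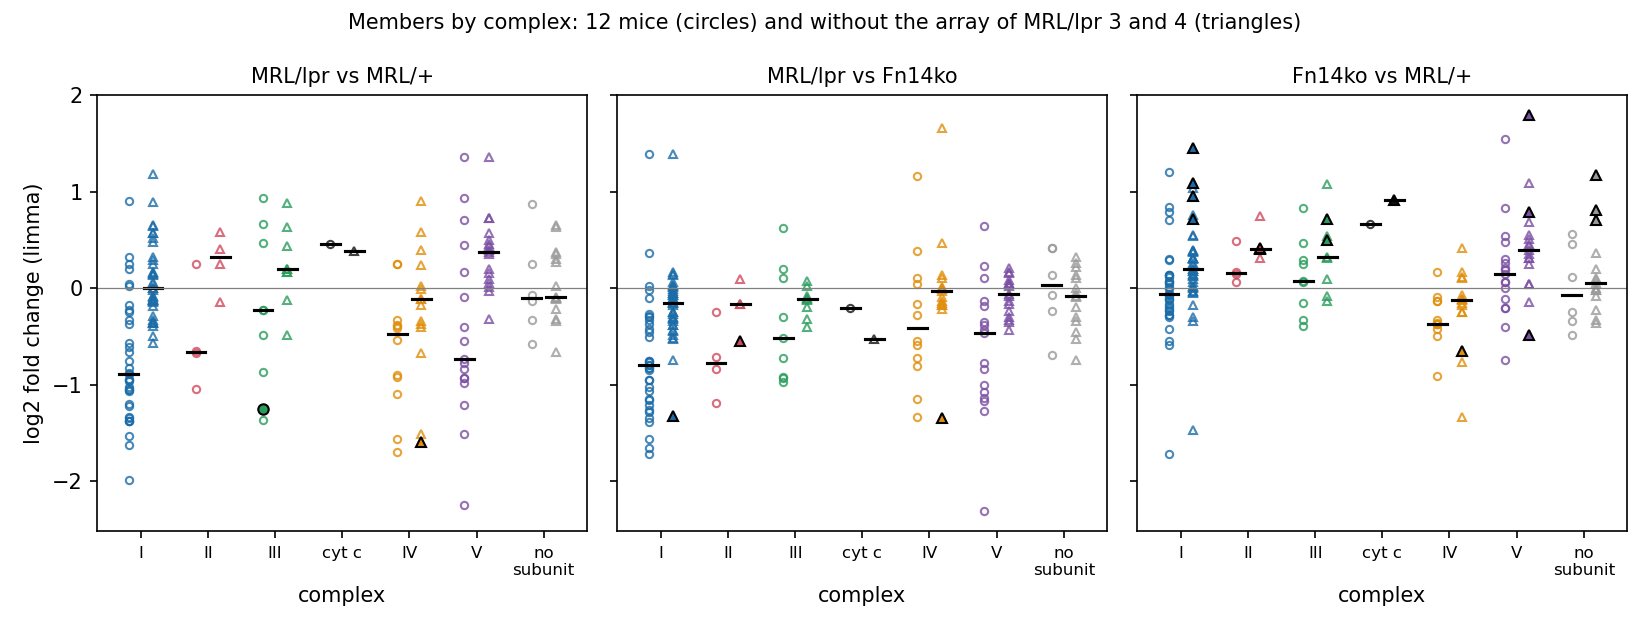
Log2 fold change of each member (y axis) by complex (x axis) in the 3 comparisons, for 12 mice (circles, 84 members) and for the 10 mice outside the dim array (triangles, 98 members), with medians as bars and members called by limma filled. In both comparisons with MRL/lpr the bars of complexes I to V lie below 0 in 12 mice and between -0.17 and 0.38 in 10 mice.

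The members of the complexes are described next, without a test between complexes. Complex I, the entry point for NADH, had the lowest median against MRL/+, -0.89 over 35 genes with 29 of them below 0. It was followed by complex V with -0.74 over 17 genes, complex II with -0.67 over 4, complex IV with -0.48 over 12 and complex III with -0.23 over 9. Without the dim array these medians were 0.00, 0.38, 0.33, -0.11 and 0.20. They were not of 1 size in the dyes of MRL/+. Relative to the mean of Fn14ko and MRL/+, complex V had medians of 0.02 and 0.08 in the Cy3 mice of MRL/+. In its Cy5 mice they were -0.68 and -0.13, and on the scale of the 12-mouse set -0.17 and 0.11. Complex IV was not lower there, at -0.23 and 0.14 in Cy3 and at -0.01 and 0.20 in Cy5. The 6 assembly factors and relatives that passed the 12-mouse filter had a median of -0.10.

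In complex I the core subunits shown here were lowest in MRL/lpr 3 and 4. Ndufs1, the large iron-sulphur subunit, was at 6.09, 6.36, 1.53 and 1.19 in MRL/lpr mice 1 to 4, at 6.62, 7.57, 7.09 and 6.61 in Fn14ko, and at 6.48, 9.63, 6.26 and 8.22 in MRL/+. MRL/lpr mice 1 and 2 lay close to the lowest MRL/+ mice, and the log2 fold change against MRL/+ over 12 mice was -1.38 (SE 0.51, adjusted p = 0.0860). Ndufv1, which binds NADH and the flavin that takes its electrons, was at 5.10, 11.01, 4.05 and 3.43 in MRL/lpr, at 9.89, 11.4, 11.8 and 14.8 in Fn14ko, and at 10.8, 11.96, 10.4 and 9.996 in MRL/+. MRL/lpr mouse 1 was low here as well, while mouse 2 was within the range of the MRL/+ mice. Its log2 fold change was -1.16 against Fn14ko (SE 0.33, adjusted p = 0.0637) and -1.03 against MRL/+ (SE 0.33, adjusted p = 0.0678), both short of the threshold.

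Ndufa3, an accessory subunit, was measured by 2 probes that moved in opposite directions in MRL/lpr. One was at 2.93, 2.55, 6.70 and 10.2 in MRL/lpr mice 1 to 4, higher in the dim array, and the other at 8.32, 9.05, 5.31 and 3.93, lower there. Their log2 fold changes against MRL/+ were 0.74 and -1.24. The mean of the probes, at 5.62, 5.80, 6.002 and 7.04 in MRL/lpr and 9.64, 8.81, 9.14 and 8.50 in MRL/+, did not pass the test (log2 fold change -0.56, SE 0.20, adjusted p = 0.0805), and its even level over the MRL/lpr mice came from averaging probes that moved apart. Ndufc1, another accessory subunit, was measurable in the 10 mice only. It was at 3.76 and 5.13 in MRL/lpr mice 1 and 2, at 12.3, 12.8, 8.34 and 11.1 in Fn14ko, and at 10.1, 3.86, 8.92 and 5.12 in MRL/+. It was lower in MRL/lpr than in Fn14ko without overlap (log2 fold change -1.32, SE 0.35, adjusted p = 0.0401), and the difference was -1.43 in Cy3 and -1.21 in Cy5. The call was lost under 7 of 14 alternative settings, with an adjusted p up to 0.433 without MRL/lpr mouse 1. Leaving out either of these MRL/lpr mice leaves 1, which is then assumed to vary like the mice of the other strains. The MRL/+ mice split by dye, their Cy5 mice lying in the MRL/lpr range.

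Ndufa4, long counted with complex I and now placed in complex IV, varied most among the Fn14ko mice. Its levels there were 3.98, 3.46, 0.480 and 1.69, against 5.66, 5.46, 6.23 and 6.82 in the MRL/+ mice, while MRL/lpr mice 1 to 4 were at 4.17, 6.20, 3.20 and 6.41. All 4 Fn14ko mice were below all MRL/+ mice, with mouse 3 far below the rest. The log2 fold change was -1.72 (SE 0.53, adjusted p = 0.142) and did not pass the test, nor did MRL/lpr against Fn14ko at 1.39 (SE 0.53, adjusted p = 0.106). In the 10 mice, 4 further complex I subunits were called higher in Fn14ko than in MRL/+, namely Ndufb10, Ndufb9, Ndufa8 and Ndufa10, and for all of them the difference lay mainly in Cy5. Ndufb10 was at 27.3, 26.0, 29.2 and 28.2 in Fn14ko and at 24.9, 3.02, 25.9 and 5.36 in MRL/+, a difference of 0.15 log2 units in Cy3 and 2.75 in Cy5. The Cy3 mice of both strains were nearly level, and the Cy5 mice of MRL/+ set the call.

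Complex II is made of Sdha, Sdhb, Sdhc and Sdhd and also belongs to the citric acid cycle. Over the 10 mice Sdha, the flavoprotein that oxidises succinate, was at 12.7 and 14.1 in MRL/lpr mice 1 and 2, at 18.7, 20.4, 20.5 and 18.7 in Fn14ko, and at 14.7, 14.1, 15.7 and 14.9 in MRL/+. On this scale the Fn14ko mice were above all others, and the higher MRL/lpr mouse reached the lowest of MRL/+. Sdha was thus lower in MRL/lpr than in Fn14ko (log2 fold change -0.55, SE 0.14, adjusted p = 0.0361; -0.63 in Cy3 and -0.47 in Cy5) and higher in Fn14ko than in MRL/+ (0.40, SE 0.11, adjusted p = 0.0335; 0.37 in Cy3 and 0.43 in Cy5). Both differences were of similar size in the 2 dyes on the 10-mouse scale. The first call was lost under 10 and the second under 9 of 14 alternative settings, with adjusted p up to 0.355 and 0.181. Over 12 mice the values of MRL/lpr mice 3 and 4 were 1.29 and 1.28, beside 3.37 and 3.75 in mice 1 and 2. Those of Fn14ko were 4.72, 5.15, 5.03 and 4.66 and those of MRL/+ 3.82, 5.19, 3.97 and 4.80, so these strains overlapped on the 12-mouse scale. The log2 fold change of MRL/lpr was -1.19 against Fn14ko (SE 0.36, adjusted p = 0.0727).

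The iron-sulphur subunit Sdhb was measured by 2 probes that differed. One was at 3.18, 2.54, 0.997 and 0.718 in MRL/lpr, between 2.11 and 2.59 in Fn14ko and between 2.72 and 3.29 in MRL/+, so it was low in the dim array as Sdha was. The other was at 5.44, 5.90, 6.07 and 5.70 in MRL/lpr, between 6.14 and 7.75 in Fn14ko, and at 6.05, 1.32, 5.74 and 1.78 in MRL/+, low in the Cy5 mice of MRL/+ and not in the dim array. Their log2 fold changes for MRL/lpr against MRL/+ were -0.95 and 0.94. Sdhc, a membrane anchor of the complex, was called higher in Fn14ko than in MRL/+ in 10 mice (log2 fold change 0.42, SE 0.13, adjusted p = 0.0491), with 0.26 in Cy3 and 0.57 in Cy5. This call was lost under 11 of 14 alternative settings, with an adjusted p up to 0.341.

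The 250 bases before the start site of Sdha are printed because they hold 3 copies of the palindromic motif of NRF1, a factor known to bind promoters of respiratory chain genes. They lie at chr13:74350241-74350490 on the minus strand of GRCm38.p6, from RefSeq, with the motif (GCGC, any base, T, GCGC, on either strand) in capitals.
Sdha: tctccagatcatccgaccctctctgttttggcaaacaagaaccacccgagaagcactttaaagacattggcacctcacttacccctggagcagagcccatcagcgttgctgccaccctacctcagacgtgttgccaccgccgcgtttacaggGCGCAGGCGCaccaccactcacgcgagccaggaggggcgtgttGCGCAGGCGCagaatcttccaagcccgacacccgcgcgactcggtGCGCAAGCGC
Of the 81 members with a promoter entry, 14 (17.3%) held this motif in that window, beside 1144 of 27025 genes (4.23%). The ETS motif CCGGAAG stood in 16 members (19.8%) and in 7.83% of all genes, and the YY1 motif, AAGATGG directly followed by CGGC, in 0 members and in 0.248% of all genes. The windows were searched on both strands, and a match describes letters only.

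Uqcrc1, a core subunit of complex III, was the only member called over all 12 mice in any of the 3 comparisons. Its single probe maps to chromosome 9 between 108851008 and 108851487 on the plus strand of mm9, a span longer than the probe. The levels were 5.52, 5.49, 2.35 and 2.46 in MRL/lpr, 6.24, 6.41, 8.02 and 6.93 in Fn14ko, and 7.21, 8.80, 8.54 and 10.4 in MRL/+. All MRL/lpr mice were below all mice of both other strains, and mice 3 and 4 lay lowest. Uqcrc1 was lower in MRL/lpr than in MRL/+ (log2 fold change -1.25, SE 0.32, adjusted p = 0.0375; exact permutation test, two-sided, p = 0.0286, the smallest that 4 against 4 mice can give). The call was lost under 17 of 27 alternative settings, and without the dim array the log2 fold change was -0.49 with an adjusted p of 0.0862. Against Fn14ko it was -0.92 (SE 0.32, adjusted p = 0.0956), and between Fn14ko and MRL/+ it was -0.33 (SE 0.32, adjusted p = 0.717).

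Cyc1, the cytochrome c1 of complex III, had the smallest spread of all members, in Fn14ko. Its levels there were 6.22, 6.19, 6.24 and 6.25, beside 6.27, 5.88, 5.07 and 3.51 in MRL/lpr and 6.49, 4.43, 7.54 and 5.64 in MRL/+. The strains overlapped. Uqcrfs1, the Rieske iron-sulphur protein, was at 3.21, 2.87, 0.872 and 0.866 in MRL/lpr and between 2.69 and 3.33 in all other mice, so the low values were those of the dim array. Uqcrb and Uqcrh, small subunits of complex III, were called higher in Fn14ko than in MRL/+ in 10 mice. Uqcrb was at 8.03, 7.19, 8.12 and 7.82 in Fn14ko and at 5.91, 3.17, 5.85 and 4.59 in MRL/+ (log2 fold change 0.72, SE 0.17, adjusted p = 0.0159), with 0.46 in Cy3 and 0.97 in Cy5, a call lost under 1 of 14 alternative settings. Uqcrh was at 44.5, 53.9, 44.3 and 59.6 in Fn14ko and at 40.4, 39.5, 28.7 and 34.9 in MRL/+ (log2 fold change 0.50, SE 0.15, adjusted p = 0.0375), with 0.38 in Cy3 and 0.61 in Cy5. All its Fn14ko values were above all those of MRL/+ on the 10-mouse scale. On the 12-mouse scale they overlapped, at 10.88 to 14.88 in Fn14ko and 7.275 to 14.51 in MRL/+. The call was lost under 10 of the 14 settings, with an adjusted p up to 0.127.

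Cycs, the cytochrome c that carries electrons from complex III to complex IV, was at 1.85, 1.26, 2.83 and 1.58 in MRL/lpr, at 2.15, 2.24, 2.19 and 1.76 in Fn14ko, and at 2.03, 0.867, 1.88 and 0.891 in MRL/+. Fn14ko and the Cy3 mice of MRL/+ were close, and the Cy5 mice of MRL/+ were lowest. The log2 fold change of Fn14ko against MRL/+ was 0.66 over 12 mice (SE 0.25, adjusted p = 0.223) and 0.91 over 10 mice (SE 0.26, adjusted p = 0.0319), with 0.20 in Cy3 and 1.63 in Cy5. Its 3 probes disagreed, with log2 fold changes over 12 mice from -1.15 to 1.40 in that comparison.

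The window before the start site of Uqcrc1, at chr9:108936398-108936647 on the plus strand of GRCm38.p6, held none of the 3 motifs, and it is shown beside that of Sdha as the member called in 12 mice.
Uqcrc1: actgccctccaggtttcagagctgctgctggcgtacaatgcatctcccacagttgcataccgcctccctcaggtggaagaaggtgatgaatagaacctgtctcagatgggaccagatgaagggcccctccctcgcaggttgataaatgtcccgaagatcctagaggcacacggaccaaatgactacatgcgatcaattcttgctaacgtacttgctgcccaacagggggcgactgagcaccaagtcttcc

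In complex IV, which passes electrons to oxygen, the member with the largest called difference from MRL/+ outside the dim array was Cox6a2. It is the heart and skeletal muscle form of subunit 6a, whose usual form is Cox6a1. Its probe maps to chromosome 7 between 135349160 and 135349219 on the minus strand of mm9. Over the 10 mice its level was 1.08 and 1.26 in MRL/lpr mice 1 and 2, 2.97, 2.58, 3.36 and 2.96 in Fn14ko, and 3.55, 3.26, 4.01 and 3.29 in MRL/+. Both MRL/lpr mice were below every mouse of the other strains, and the highest Fn14ko mouse overlapped the lowest of MRL/+. Cox6a2 was lower in MRL/lpr than in MRL/+ (log2 fold change -1.60, SE 0.17, adjusted p = 0.000235) and than in Fn14ko (-1.35, SE 0.17, adjusted p = 0.001).

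The difference of Cox6a2 was present in both dyes, with -1.81 and -1.38 against MRL/+ and -1.55 and -1.14 against Fn14ko in Cy3 and Cy5. An exact permutation test of 2 mice against 4 gave p = 0.0667, the smallest it can give. Both calls held under all 14 alternative settings of the 10-mouse fit, with adjusted p up to 0.00957 and 0.0363, both of them without MRL/lpr mouse 1. In that setting and without mouse 2, the strain is left with 1 mouse and the spread comes from the other strains. Between Fn14ko and MRL/+ the log2 fold change was -0.25 (SE 0.14, adjusted p = 0.197). In MRL/lpr mice 3 and 4 the spot was not well above background, so all 4 mice could not be compared.

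Levels of region and blood cell markers moved in the same mice as Cox6a2. The summed level of 6 cerebral cortex markers, taken without the filter, was between 10.8 and 28.4 in the MRL/lpr mice. It was between 110.2 and 166 in Fn14ko and between 59.2 and 213 in MRL/+. Over the 10 mice, 5 of the 6 were called lower in MRL/lpr than in MRL/+. Against Fn14ko, 4 were called lower in MRL/lpr and 1, Fezf2, higher. Of all genes, 15.7% and 9.12% were called in these comparisons. Of 8 striatum markers, 2 were lower in MRL/lpr than in MRL/+ and 5 than in Fn14ko, with sums of 16.7 to 67.1 in MRL/lpr, 174 to 670 in Fn14ko and 35.6 to 210.1 in MRL/+. Of 7 choroid plexus markers 4 were higher in MRL/lpr in both comparisons, with sums of 63.7 to 612 in MRL/lpr, 11.2 to 144 in Fn14ko and 12.4 to 29.2 in MRL/+. Of the 7 measurable markers of hippocampal neurons, 5 were called higher in MRL/lpr than in Fn14ko, and 4 were higher and 1, Nrgn, lower than in MRL/+. Their sums, over 9 markers without the filter, were 377 and 418 in MRL/lpr mice 1 and 2, 458 to 705 in Fn14ko and 419 to 1239 in MRL/+, so the sum did not follow the single markers. Of 5 erythroid markers, 5 were higher in MRL/lpr than in Fn14ko and 4 than in MRL/+, with median log2 fold changes of 1.71 and 1.87. Their sums were 2801, 1996, 282 and 52.6 in MRL/lpr, 491 to 2329 in Fn14ko and 263 to 1239 in MRL/+. Region markers also differed between Fn14ko and MRL/+ over the 10 mice, where 21.1% of all genes were called. Of the 8 striatum markers 5 were higher in Fn14ko (median log2 fold change of the list 1.32). Of the cortex markers 2 were lower, of the hippocampal neuron markers 3 were lower and 1 higher, of the erythroid markers 1 was lower, and 0 choroid plexus markers were called. Of the markers of neurons, astrocytes, oligodendrocytes, microglia and endothelium, 0 to 3 of each list were called in each comparison. Each marker found on the array was well above background in at least 1 mouse. Their part in the differences of the members was not tested.

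**Figure D4:**
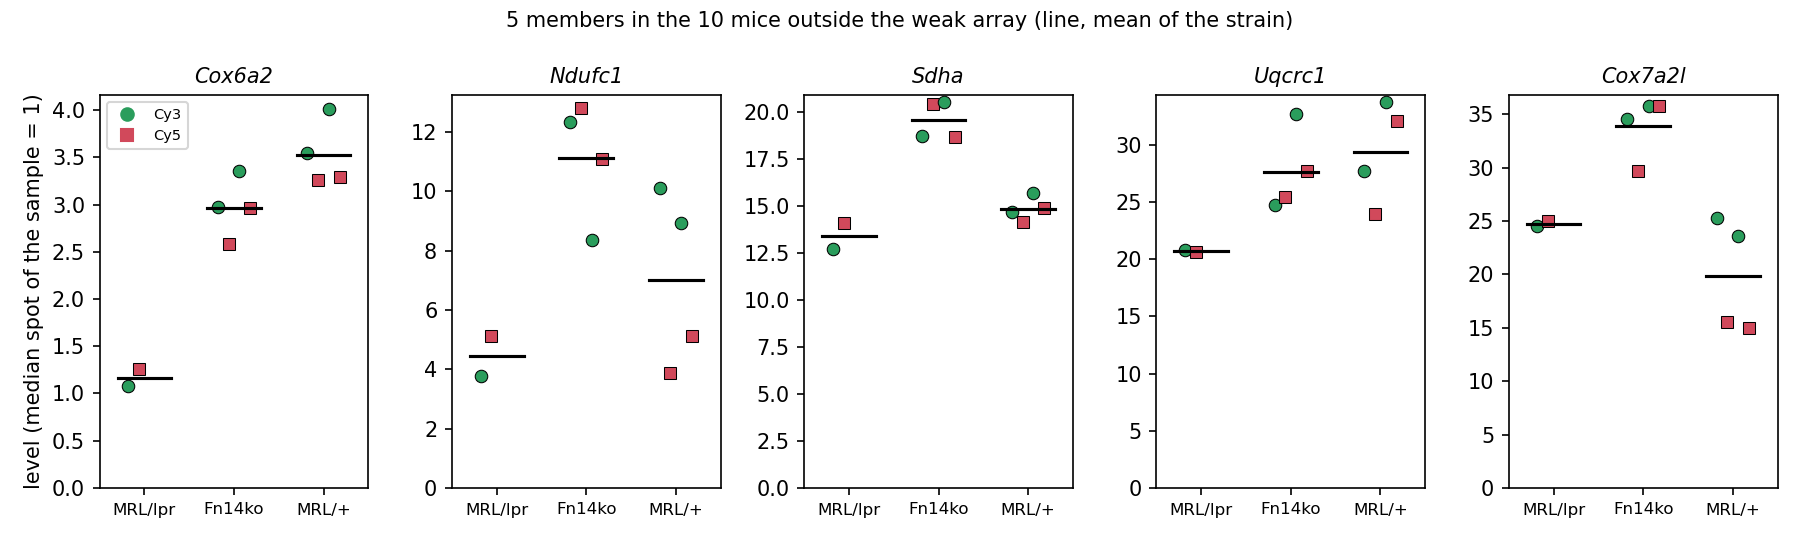
Level of 5 members (y axis, the median spot of a sample is 1) in the 10 mice outside the dim array by strain (x axis), with Cy3 mice as circles, Cy5 mice as squares and the mean of the strain as a line. Cox6a2 lies at 1.08 and 1.26 in MRL/lpr and at 2.58 to 4.01 elsewhere, Sdha is highest in Fn14ko, and the Cy5 mice of MRL/+ are lowest for Cox7a2l.

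The usual forms of complex IV subunits behaved otherwise. Cox6a1 was at 183 and 272 in MRL/lpr mice 1 and 2, between 165 and 239 in Fn14ko and between 177 and 289 in MRL/+, so the strains overlapped. Cox7a2, the liver and brain form of subunit 7a, was at 3.88, 4.19, 1.04 and 0.828 in MRL/lpr, at 4.79, 4.54, 3.78 and 4.06 in Fn14ko, and at 5.30, 6.63, 5.07 and 6.04 in MRL/+. All MRL/lpr mice were below all MRL/+ mice, but the test was not passed over 12 mice (log2 fold change -1.57, SE 0.48, adjusted p = 0.0609). Its muscle counterpart Cox7a1 was at 0.234 to 0.558 in MRL/lpr, 0.314 to 0.401 in Fn14ko and 0.275 to 0.718 in MRL/+, with full overlap.

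Cox7b, a small subunit, was at 8.25, 10.3, 1.45 and 1.12 in MRL/lpr and between 7.85 and 12.3 in the other strains. The low values were again those of mice 3 and 4, and the log2 fold change against MRL/+ was -1.70 (SE 0.63, adjusted p = 0.0867). Cox5b, which carries a zinc site, was at 8.62, 8.37, 5.54 and 2.60 in MRL/lpr and at 9.53, 12.5, 9.87 and 11.2 in MRL/+ (log2 fold change -0.92, SE 0.35, adjusted p = 0.0955). Of its 2 probes, the one was at 1.14 and 0.646 in the dim array and between 8.91 and 16.7 elsewhere, and the other at 9.93 and 4.55 there and between 5.68 and 9.20 elsewhere. Outside the dim array its levels were 32.5 and 31.5 in MRL/lpr and 34.1 to 39.0 in MRL/+. Cox5a, Cox6c and Cox7c had their lowest values in MRL/lpr mouse 4, at 4.46, 2.16 and 1.49, and Cox8a, the usual form of subunit 8, had its lowest in MRL/lpr mouse 1, at 23.0. Cox6b1 was between 0.512 and 1.07 in all mice.

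Cox4i2, the form of subunit 4 known from lung and from low oxygen, was one of 2 members called lower in Fn14ko than in MRL/+ over the 10 mice. Its levels were 0.607, 0.572, 0.800 and 0.855 in Fn14ko against 0.890, 1.25, 1.01 and 1.31 in MRL/+, while MRL/lpr mice 1 and 2 were at 0.641 and 0.746. All Fn14ko mice were below all MRL/+ mice (log2 fold change -0.66, SE 0.18, adjusted p = 0.0277), by 0.44 in Cy3 and 0.87 in Cy5, and the call was lost under 8 of 14 alternative settings, with an adjusted p up to 0.0910. Over 12 mice the log2 fold change was -0.91 (SE 0.53, adjusted p = 0.483). Cox8b was at 0.589 and 0.227 in MRL/lpr mice 1 and 2 and between 0.110 and 0.376 in the other 8 mice.

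Complex V, the ATP synthase, held both the lowest and the highest fold change between MRL/lpr and MRL/+ over 12 mice. Atp5c1, the gamma subunit of the rotating stalk, was at 8.59, 8.43, 0.457 and 0.511 in MRL/lpr, at 9.28, 9.65, 10.1 and 11.5 in Fn14ko, and at 8.98, 11.8, 8.78 and 9.27 in MRL/+. Mice 3 and 4 of MRL/lpr were far below all others, and the log2 fold change of -2.25 against MRL/+ (SE 0.88, adjusted p = 0.0986) and of -2.31 against Fn14ko (SE 0.88, adjusted p = 0.106) did not pass the test. Outside the dim array Atp5c1 was at 20.8 and 19.2 in MRL/lpr and between 17.4 and 21.4 in MRL/+, and the log2 fold change turned to 0.06 (adjusted p = 0.807).

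Atp5a1, the alpha subunit of the catalytic head, was at 6.39, 5.10, 9.10 and 5.57 in MRL/lpr, at 7.45, 6.62, 8.42 and 6.72 in Fn14ko, and at 5.87, 1.02, 5.69 and 1.13 in MRL/+. The Cy5 mice of MRL/+ alone were low. The log2 fold change of Fn14ko against MRL/+ was 1.55 over 12 mice (SE 0.40, adjusted p = 0.109) and 1.80 over 10 mice (SE 0.45, adjusted p = 0.0212), with 0.50 in Cy3 and 3.09 in Cy5. That of MRL/lpr against MRL/+ was 1.36 over 12 mice (SE 0.40, adjusted p = 0.0551). Atp5b, the beta subunit that makes ATP in the same head, was highest in a mouse of MRL/lpr, with 19.0, 32.7, 5.33 and 4.06 there, 17.5 to 26.9 in Fn14ko and 12.9 to 30.5 in MRL/+.

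The ring subunit c is encoded by Atp5g1, Atp5g2 and Atp5g3, whose proteins are the same once imported. In MRL/lpr mice 3 and 4, Atp5g3 was at 2.85 and 2.04 by its 1 probe, below the other 10 mice at 5.37 to 13.2. Atp5g1 and Atp5g2 each had a probe that was low there as well, at 6.38 and 4.26 against 11.9 to 24.95 elsewhere and at 5.80 and 3.36 against 9.56 to 23.4. Their other probes were not low, at 2.99 and 2.00 against 0.860 to 2.19 for Atp5g1 and at 25.4 and 64.0 against 4.68 to 7.23 for Atp5g2. The high mean of Atp5g2 in those mice, 15.6 and 33.7, thus came from 1 of its 2 probes, whose log2 fold changes against MRL/+ were 1.26 and -0.99. Outside the dim array, Atp5g2 was at 32.9 and 38.8 in MRL/lpr and between 28.8 and 45.7 in the other strains. Atp5o, of the stalk that holds the head, was at 0.643 and 0.751 in MRL/lpr mice 3 and 4 and between 2.22 and 6.03 in all others. Atp5md and Atp5mpl, small membrane subunits, were called in opposite directions between Fn14ko and MRL/+ over the 10 mice. Atp5md was higher in Fn14ko, at 31.5, 37.1, 30.7 and 35.7 against 28.6, 13.5, 21.02 and 17.7 in MRL/+ (log2 fold change 0.79, SE 0.21, adjusted p = 0.0258), with 0.34 in Cy3 and 1.24 in Cy5. Atp5mpl was lower (-0.49, SE 0.13, adjusted p = 0.0236), by 0.44 in Cy3 and 0.54 in Cy5. The first call was lost under 5 and the second under 6 of 14 alternative settings.

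Among the members that are no subunit, Cox7a2l, Ndufaf1 and Sdhaf2 were called higher in Fn14ko than in MRL/+ over the 10 mice. Cox7a2l was at 34.5, 29.7, 35.8 and 35.8 in Fn14ko, and at 25.3, 15.5, 23.6 and 15.0 in MRL/+, while MRL/lpr mice 1 and 2 were at 24.5 and 25.01. All Fn14ko mice were above all others (log2 fold change 0.81, SE 0.15, adjusted p = 0.00802), by 0.52 in Cy3 and 1.10 in Cy5. The call held under all 14 alternative settings. Its 3 probes gave 0.26 to 1.21 in this comparison over 12 mice. By the 5′ probe described below the strains overlapped, at 11.8 to 13.2 in Fn14ko and 8.49 to 12.5 in MRL/+. The other probes were lowest in the Cy5 mice of MRL/+, at 3.54 and 2.38 and at 1.02 and 1.15. Ndufaf1, needed to assemble complex I, was at 2.18, 2.61, 2.05 and 2.83 in Fn14ko and at 1.59, 0.706, 1.53 and 0.754 in MRL/+ (log2 fold change 1.17, SE 0.26, adjusted p = 0.0138), with 0.44 in Cy3 and 1.90 in Cy5. Sdhaf2, which helps to attach flavin to Sdha, overlapped between the strains, at 1.02 to 1.37 and 0.446 to 1.21. Ndufaf1 and Sdhaf2 were each well above background in only 2 of the 4 MRL/+ mice. Ndufa11b, a relative of a complex I subunit, varied least in MRL/+, at 0.553 to 0.594.

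**Figure D5:**
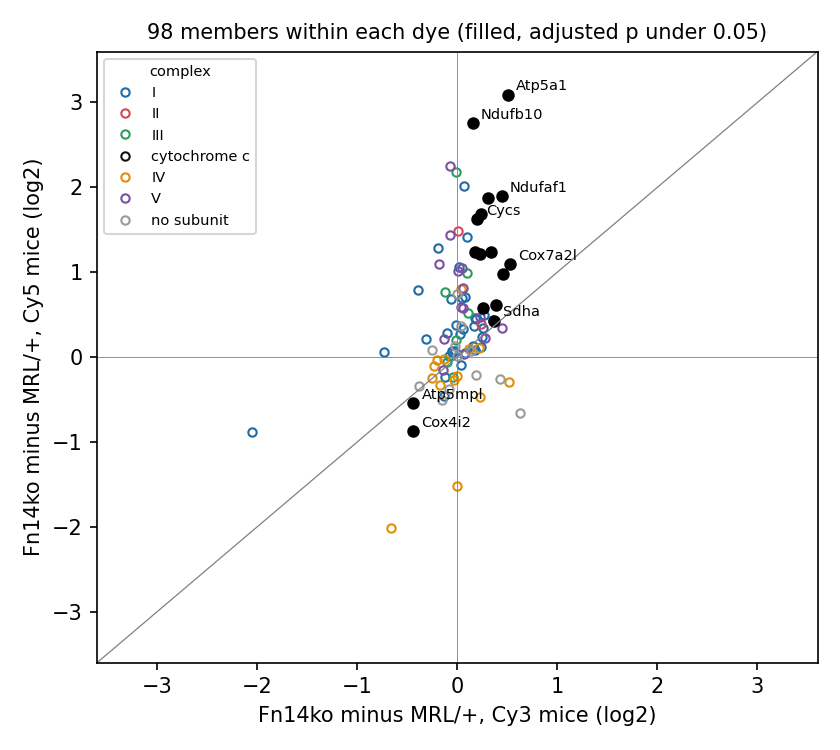
Log2 difference of Fn14ko from MRL/+ in the Cy5 mice (y axis) against that in the Cy3 mice (x axis) for 98 members in the 10 mice, coloured by complex, with the 16 called members in black and the line of equal differences. Atp5a1 (0.50 in Cy3, 3.09 in Cy5) and Ndufb10 (0.15 and 2.75) lie far above the line, Sdha (0.37 and 0.43) and Atp5mpl (-0.44 and -0.54) close to it.

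Members with several probes did not always give 1 answer. Of 25 such genes, the probes had log2 fold changes of opposite sign in 15 for MRL/lpr against MRL/+, in 11 for MRL/lpr against Fn14ko and in 18 for Fn14ko against MRL/+, with a median gap between the highest and lowest probe of 1.36, 0.93 and 0.60. Atp5h, the d subunit of the ATP synthase stalk, had the widest gap against MRL/+, 3.07, with neighbouring probes at chr11:115277011-115277070 and chr11:115277088-115277147 on the minus strand of mm9. The first gave 16.6, 16.8, 1.48 and 0.843 in MRL/lpr and 16.4 to 25.7 in MRL/+, the second 7.90, 5.86, 4.99 and 2.80 in MRL/lpr and 6.85, 0.892, 7.68 and 1.33 in MRL/+. The first was low in the dim array alone, the second in the Cy5 mice of MRL/+ as well. For Cycs the gap was 3.05 in MRL/lpr against Fn14ko and 2.55 in Fn14ko against MRL/+.

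Cox7a2l gave opposite signs with probes that overlap by 41 bases, on the minus strand of mm9. The probe at chr17:83901291-83901350 gave -1.41 and that at chr17:83901272-83901331 gave 0.84 for MRL/lpr against MRL/+, neither past the threshold. The bases that each probe has to itself, at its 5′ and 3′ end respectively, are printed because they are all that tells these probes apart.
Cox7a2l 5′ probe, own bases: cagctgtgtcaggacttct
Cox7a2l 3′ probe, own bases: tgcggaataaacactggaa
The first probe was at 7.86, 9.67, 1.85 and 1.58 in MRL/lpr and at 9.43, 12.5, 8.49 and 10.99 in MRL/+. The second was at 8.50, 8.28, 6.11 and 9.60 in MRL/lpr and at 7.56, 3.54, 6.27 and 2.38 in MRL/+. The first was low in the dim array, and the second in the Cy5 mice of MRL/+. Uqcr10, a small subunit of complex III, did likewise with probes that share 53 bases, at -1.10 and 1.33, each with only 7 bases of its own.
Uqcr10 5′ probe, own bases: cagactc
Uqcr10 3′ probe, own bases: agaccgg
In MRL/lpr mice 3 and 4 the 5′ probe was at 1.92 and 1.40 and the 3′ probe at 14.6 and 33.4, against 5.09 to 8.57 and 3.67 to 6.46 in the mice of the other strains. The same RNA was thus below the other strains by the 5′ probe and above them by the 3′ probe.

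The other genes of the pathway were counted from lists. Of 9 genes of the mitochondrial genome on the array, 7 passed the 12-mouse filter. Of these, 1 was called lower in MRL/lpr than in MRL/+, beside 9.17% of all genes. Limma called none in the other comparisons, where 0 and 3 had an unadjusted p under 0.05 against Fn14ko and between Fn14ko and MRL/+. Of all 8864 genes, 3211 and 1352 did. The called gene was ATP8, a subunit of complex V, at 1.66, 3.05, 3.40 and 1.52 in MRL/lpr, 2.69, 2.44, 2.38 and 1.42 in Fn14ko, and 3.85, 11.4, 5.20 and 9.86 in MRL/+. All MRL/+ mice were above all others, and the log2 fold change of MRL/lpr against MRL/+ was -1.61 (SE 0.40, adjusted p = 0.0351) over 12 mice and -1.45 (SE 0.34, adjusted p = 0.0187) over 10 mice. Over 10 mice ATP8 was lower in Fn14ko than in MRL/+ as well (-1.41, SE 0.28, adjusted p = 0.00934), with -0.77 in Cy3 and -2.05 in Cy5. It was 1 of 3 genes of the mitochondrial genome, with CYTB and ND4L, called lower in Fn14ko than in MRL/+ over the 10 mice. These were 3 of 9, beside 21.1% of all genes.

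Of 40 assembly factors on the array, 9 of them members by name, 22 passed the 12-mouse filter. Over 12 mice 9.17% of all genes were called between MRL/lpr and MRL/+ and 3.98% between MRL/lpr and Fn14ko. Coa5 and Uqcc2, which serve complexes IV and III, were lower in MRL/lpr than in MRL/+ (log2 fold change -1.07, SE 0.25, adjusted p = 0.0272 and -1.40, SE 0.37, adjusted p = 0.0399), and over the 10 mice they were lower by 0.66 and 0.56 (adjusted p = 0.0416 and 0.0433). Bcs1l, which inserts the Rieske protein into complex III, was higher in MRL/lpr than in Fn14ko (1.42, SE 0.30, adjusted p = 0.0302), also over 10 mice (0.81, adjusted p = 0.0359). Over the 10 mice 39 assembly factors could be compared. Of these, 6 were called higher and 5 lower in Fn14ko than in MRL/+, beside 21.1% of all genes. In MRL/lpr 1 was higher and 3 lower than in MRL/+, beside 15.7%, and 1 was higher than in Fn14ko, beside 9.12%. Mpc1, of the pyruvate carrier, was the 1 called gene of 11 inner membrane carriers and porins, lower in MRL/lpr than in MRL/+ (-1.33, SE 0.37, adjusted p = 0.0449), and did not pass without the dim array (-0.42, adjusted p = 0.104). Over the 10 mice 2 of 12 carriers and porins, Slc25a5 and Slc25a11, were called higher in MRL/lpr and in Fn14ko than in MRL/+.

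None of 14 genes of the citric acid cycle and pyruvate dehydrogenase, 16 of glycolysis, 7 of coenzyme Q synthesis and 6 of mitochondrial biogenesis was called in any comparison by limma over 12 mice. At an unadjusted p under 0.05, 5, 11, 2 and 2 of them passed between MRL/lpr and MRL/+, beside 3242 of 8864 genes. Over the 10 mice some were called. Of all genes, 21.1% were called there between Fn14ko and MRL/+, 15.7% between MRL/lpr and MRL/+ and 9.12% between MRL/lpr and Fn14ko. In the citric acid cycle and pyruvate dehydrogenase, 3 of 17 genes (Cs, Dlat and Dld) were higher in Fn14ko than in MRL/+ and 1 (Suclg2) was lower in MRL/lpr than in Fn14ko. In glycolysis, 2 of 16 (Gpi1 and Pfkp) were higher in Fn14ko than in MRL/+. Of 13 genes of coenzyme Q synthesis, 1 (Coq6) was higher in Fn14ko and in MRL/lpr than in MRL/+. Of 16 of biogenesis, 1 (Mterf3) was higher in Fn14ko and 1 (Ppargc1a) lower in MRL/lpr than in MRL/+. The medians of the log2 fold changes of the 4 lists between MRL/lpr and MRL/+ over 12 mice were -0.25, -0.87, 0.33 and 0.47, and without the dim array 0.21, -0.09, -0.16 and 0.06. Those of the genes of the mitochondrial genome were -1.37 and -0.53, of the assembly factors -0.23 and -0.10, and of the carriers -0.77 and 0.07.

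The spread among the 4 mice of a strain was described by the relative expression variability (REV), here the coefficient of variation pooled over the spots of a gene. Its median over the members was 55.8% in MRL/lpr, 11.4% in Fn14ko and 25.1% in MRL/+, beside 54.1%, 16.4% and 29.5% for all genes. The most variable members were Atp5c1 in MRL/lpr (103%), Ndufa4 in Fn14ko (67.1%) and Atp5a1 in MRL/+ (79.3%), and the least variable were Ndufa11b in MRL/lpr (12.06%) and MRL/+ (3.19%) and Cyc1 in Fn14ko (0.453%). In MRL/lpr the spread followed the dim array, and in MRL/+ that of Atp5a1 followed the dye.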

How the data were processed

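Per the labels and the study's methods, the authors hybridised total RNA of 12 hippocampi in pairs to 6 two-colour Agilent arrays and extracted spots with Agilent Feature Extraction 12.1. The deposited values were per-spot foreground and background intensity, not normalized, with quality flags; probe coordinates in the files are on mm9. From these, local background was subtracted, spots under 2 times background or flagged in any sample used were left out, and each channel was divided by its median. Spots of a probe and then probes of a gene were averaged. Log2 levels were fitted over all genes and the 3 strains with limma 3.58.1 in R 4.3.3 (empirical Bayes with trend, dye as covariate). P-values were adjusted by Benjamini-Hochberg over all genes, with a threshold of 0.05. Array number and signal over background limit the precision. The fit was tested on simulated data. Figures were drawn in Python 3.11.15.

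The members, lists and tests were chosen with earlier results of these data known. Genes were named if called with groups that did not overlap (up to 3 each way), if among 30 preset core subunits or isoforms, if lowest or highest in spread within a strain, if their probes disagreed (up to 3), or if called in a pathway list (up to 3); members called only in the 10 mice, Ndufc1, Sdhc, Ndufb10, Ndufb9, Ndufa8, Ndufa10, Uqcrb, Uqcrh, Atp5md, Atp5mpl, Cox7a2l, Ndufaf1 and Sdhaf2, pathway genes called only there, and the marker lists shown were named after their values were seen. Replicates are separate mice by the labels. Equal replicate numbers were checked for pairing by correlating deviations from group means: 0.20 to 0.50 between Fn14ko and MRL/+, but -0.40 to 0.44 in the comparisons with MRL/lpr. Odd and even numbers are the dyes, and after removal of dye the Fn14ko and MRL/+ values were 0.00 and -0.07, so the numbers were not taken as pairs. The alternatives were other filters, normalizations, summaries, blocks, weights and tests, and each mouse left out. No column of another series was present (0 columns). Promoters are from RefSeq on GRCm38.p6.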

Additional observations from a re-analysis of the deposited data

Results flagged for a closer look

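The level of Atp5c1 in MRL/+ mouse 2 was 11.8, against 8.78 to 9.27 in the other 3 MRL/+ mice, a gap of 0.841 of the group's range, past Dixon's limit for 4 samples. It was the only one of 93 groups of 4 mice tested that lay past this limit, and about 1 group in 20 does so by chance.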

How the results depend on the processing

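The number of members called between MRL/lpr and MRL/+ over 12 mice (1) was 0 with no filter, with quantile normalization, with the array as a random block (estimated correlation 0.71), with 6 array means, with the replicate number as a block, with only the 2 strains fitted and by the methods' t-test with its composite threshold. It was 2 with log2 averaging, without the dim array on the same spots, and without the dye term, 3 with array weights, 4 with spots well above background, and 11 with cyclic loess (7 higher, 4 lower) and with the scanner's processed signal (2 higher, 9 lower). Leaving out 1 mouse gave 0 to 41, with 41 without MRL/lpr mouse 1 and 40 without mouse 2, and 0 without either mouse of the dim array. For MRL/lpr against Fn14ko (0) the count was 6 with no filter, 3 without the dim array, 1 with array weights, and 0 to 39 on leaving out 1 mouse (34 without MRL/lpr mouse 1, 39 without mouse 2). For Fn14ko against MRL/+ (0) it was 15 and 16 without the dim array on the same and on newly chosen spots, 24 with array weights, 11 with only these strains fitted, 1 by the t-test (Ndufaf2), and 0 on leaving out any 1 mouse. After Benjamini-Hochberg adjustment the t-test called no member, while 0, 0 and 8 of all genes passed. The replicate block changed no other count of calls.

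The median of the members became 0.080 (MRL/lpr against MRL/+) and 0.19 (Fn14ko against MRL/+) without the dim array on newly chosen spots. With no filter it became -1.999 (MRL/lpr against Fn14ko) and 0.86 (Fn14ko against MRL/+). Leaving out 1 mouse gave -0.82 to -0.37, -0.83 to -0.30 and -0.07 to 0.02 in the 3 comparisons.

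Over the 10 mice, further settings were chosen after seeing the data. For MRL/lpr against MRL/+ (1) there were 11 calls with the array as a random block or as 5 array means and 8 with quantile normalization. For MRL/lpr against Fn14ko (3) there were 7 with the block and 1 without the dye term. For Fn14ko against MRL/+ (16) there were 36 with the block and 4 without the dye term. The correlation estimated for this block was negative, -0.26, which narrows the standard errors of strain differences. Leaving out 1 mouse gave 1 to 3, 1 to 4 and 1 to 20, the last with 1 without Fn14ko mouse 4, 2 without MRL/+ mouse 4, 3 without MRL/+ mouse 2 and 4 without Fn14ko mouse 2.

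Signs turned for Uqcrc1 (0.58), Cox4i2 (0.0097) between Fn14ko and MRL/+ and Ndufa4 (-0.064) between MRL/lpr and Fn14ko with no filter, and between MRL/lpr and MRL/+ for Atp5c1 without the dim array (0.057), Atp5a1 with processed signal (-0.49) and Ndufa3 with cyclic loess (0.17). Over all 31 named genes with a 12-mouse value, 22, 23 and 24 turned sign under at least 1 alternative in the 3 comparisons, in 53, 76 and 48 of 830 values, none of them past the threshold. The causes were not tested. Signal over background in the dim array limits every 12-mouse value.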

Other observations

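Fas, the gene mutated in lpr, was well above background in 1 MRL/lpr, 4 Fn14ko and 2 MRL/+ mice. Tnfrsf12a without a filter was at 7.08, 4.50, 1.63 and 0.809 in MRL/lpr, at 4.63, 3.49, 5.08 and 2.91 in Fn14ko, and at 6.81, 3.43, 12.8 and 3.505 in MRL/+. Cox4i1, which entered no fit, was at 298, 190, 233 and 107 in MRL/lpr, at 575, 350, 611 and 348 in Fn14ko, and at 540, 30.3, 525 and 44.9 in MRL/+, so its lowest values were those of the Cy5 mice of MRL/+.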
